A study of Mus musculus with 6 samples.

Results

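The genes described here are 10 that carry signals of the IL-1 receptor family in mouse group 2 innate lymphoid cells (ILC2s): the receptor chains Il1r1, Il1rap, Il1r2, Il18r1 and Il18rap, and the adaptor chain of Myd88, Irak1, Irak2, Irak3 and Traf6. They were listed by gene name, and all 10 had a row among the 25206 rows of the deposited array table. The control group held 3 arrays of C57BL/6J ILC2 line cells given a lentiviral CRISPR construct with a guide that has no target, and the knockout group held 3 arrays of cells given a guide against Cbfb. All cells grew in IL-2 and IL-33, each at 10 ng/ml, and were sorted as GFP-positive at day 6 after transduction, so no group lacks IL-33 stimulation. The sorted cells were not described as single clones, and the labels give neither the age or sex of the mice nor the number of lines behind the arrays.

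Receptors of the IL-1 family work as pairs. A chain that binds IL-1, IL-18 or IL-33 recruits an accessory chain, IL1RAP for IL-1 and IL-33 and IL18RAP for IL-18, and the paired TIR domains inside the cell gather MyD88. MyD88 assembles the IRAK kinases, which hand the signal to the ubiquitin ligase TRAF6 and from there to NF-κB and the MAP kinases. IL1R2 binds IL-1 but has no signalling domain and acts as a decoy, and IRAK3 (IRAK-M) is a kinase-dead family member best known for damping this route in myeloid cells. ILC2s use the MyD88 route to answer IL-33 with type 2 cytokines.

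Core-binding factor beta acts through RUNX proteins, and TGTGGT is a form of the core of their DNA motif. The promoters of the 10 genes were read for this form only, and other forms were not searched. RefSeq promoter windows of assembly GRCm38.p6, 250 bases before to 50 after a start, were found for all 10 genes, 15 windows in all. Read on the opposite strand the core is ACCACA. The motif stood on either strand in 5 of these 15 windows, belonging to Il18r1, Il18rap, Irak1 (2 overlapping windows) and Traf6, and in 16.8% of all 32851 windows of that length. It was in none of the 5 windows of the 3 genes that changed, which says only that these letters are not there. The windows of the changed genes are shown with that of Il18rap, which holds the motif after its start. Sequences run 5′ to 3′ on the strand of the gene, and capitals mark the motif.
Irak3 window 1 (chr10:120201548-120201847, minus strand): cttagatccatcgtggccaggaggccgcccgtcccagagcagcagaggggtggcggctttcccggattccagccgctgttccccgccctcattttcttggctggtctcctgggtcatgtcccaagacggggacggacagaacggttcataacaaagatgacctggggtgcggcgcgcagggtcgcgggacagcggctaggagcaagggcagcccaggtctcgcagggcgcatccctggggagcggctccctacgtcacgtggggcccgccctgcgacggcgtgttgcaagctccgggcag
Irak3 window 2 (chr10:120202081-120202380, minus strand): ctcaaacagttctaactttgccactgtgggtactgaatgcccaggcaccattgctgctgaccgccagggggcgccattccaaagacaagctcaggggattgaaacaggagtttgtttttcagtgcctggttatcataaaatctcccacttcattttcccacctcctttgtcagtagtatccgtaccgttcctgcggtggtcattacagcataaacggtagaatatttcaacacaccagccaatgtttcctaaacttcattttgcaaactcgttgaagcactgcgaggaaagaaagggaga
Il1r2 (chr1:40085843-40086142, plus strand): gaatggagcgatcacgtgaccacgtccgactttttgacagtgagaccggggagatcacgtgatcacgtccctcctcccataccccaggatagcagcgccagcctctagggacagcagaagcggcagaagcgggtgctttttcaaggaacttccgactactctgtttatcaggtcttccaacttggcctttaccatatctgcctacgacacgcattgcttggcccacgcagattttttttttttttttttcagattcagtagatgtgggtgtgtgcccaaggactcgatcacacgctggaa
Il1r1 window 1 (chr1:40224830-40225129, plus strand): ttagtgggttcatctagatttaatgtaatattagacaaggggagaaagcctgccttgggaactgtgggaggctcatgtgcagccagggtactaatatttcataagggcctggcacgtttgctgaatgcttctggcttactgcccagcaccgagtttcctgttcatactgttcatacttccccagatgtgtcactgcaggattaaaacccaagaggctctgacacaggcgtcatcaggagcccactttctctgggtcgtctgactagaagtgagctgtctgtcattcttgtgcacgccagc
Il1r1 window 2 (chr1:40266336-40266635, plus strand): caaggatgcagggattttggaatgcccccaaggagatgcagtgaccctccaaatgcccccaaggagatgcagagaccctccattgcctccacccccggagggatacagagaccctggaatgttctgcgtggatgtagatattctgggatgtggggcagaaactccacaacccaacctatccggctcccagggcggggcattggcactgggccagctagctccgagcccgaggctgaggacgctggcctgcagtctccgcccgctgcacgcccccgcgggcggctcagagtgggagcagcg
Il18rap (chr1:40515112-40515411, plus strand): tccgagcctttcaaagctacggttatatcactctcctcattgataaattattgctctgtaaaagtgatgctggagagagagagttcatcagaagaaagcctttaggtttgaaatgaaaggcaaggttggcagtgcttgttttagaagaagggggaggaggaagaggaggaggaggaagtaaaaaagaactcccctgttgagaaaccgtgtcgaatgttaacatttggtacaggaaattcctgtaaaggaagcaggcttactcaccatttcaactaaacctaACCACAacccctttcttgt

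The array values were log2 expression, with medians per array from 3.57 to 3.63, and no 2 arrays held identical columns. Cbfb itself kept 56.4% of the control signal in the knockout (95% interval 48.2% to 66.0%; limma adjusted p = 0.00205). The arrays read RNA, so this value does not tell how much of the Cbfb protein was left. Runx1, the gene of a DNA-binding partner, was higher by 1.28 (adjusted p = 0.00121), and Runx3, of another partner, differed by 0.24 (adjusted p = 0.198). None of 10 measured ILC2 markers had both group means below 3.60, the median of all group means, and Gata3 read 10.52 to 10.71 and Klrg1 11.33 to 11.40 over the 6 arrays. Of these 10, Rora (2.22, from a control mean of 3.32) and Bcl11b (1.14) rose, Icos (-0.78), Il7r (-0.56) and Il5 (-0.33) fell, and 5 did not pass. The share past a limma adjusted p of 0.05 was 50%, against 9.75% of all rows and 18.0% of rows with a group mean above 3.60. Of 53 measured markers of other cell types, 35 had both group means below 3.60. Of these 53, Gata2 and Dcn rose and Trac, Prf1, Itgax, Cpa3 and Pecam1 fell, 13.2% of them against 9.75% of all rows. Their part in the results below was not tested. In RNA from many cells, fewer cells of a type and less RNA per cell cannot be told apart.

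In the Cbfb knockout most genes of this chain differed from control by less than the spread between arrays, while the decoy receptor and the inhibitory IRAK were lower. Irak3 fell to 58.8% of the control signal, Il1r2 fell to 66.7%, and the weakly read Il1r1 rose to 144% (limma adjusted p 0.00447, 0.0180 and 0.0138, n = 3 arrays per group). The other 7 genes, with changes from -0.03 to 0.16 on the log2 scale, did not pass the test (adjusted p 0.631 to 0.927). Thus 1 of the 10 rose and 2 fell, where 9.75% of all rows passed, 5.51% upward and 4.24% downward. Among rows with a group mean above the median level 18.0% passed, and 2 of the 9 genes there did, so the share is near the background. The median change of the 10 genes was 0.0033 and that of all rows -0.0067. Their median change without sign was 0.037, against 0.127 for all rows. The groups did not overlap in 3 of the 10 genes and in 27.5% of all rows. Irak3 passed in all 6 leave-one-out fits (each without 1 array), and Il1r1 missed only without control replicate 3 (adjusted p = 0.0515). Il1r2 missed without control replicate 2 (0.0729), control replicate 3 (0.0647), knockout replicate 1 (0.0549) or knockout replicate 3 (0.0612). Over all rows the calls dropped to 763 higher and 544 lower without control replicate 2, from 1389 and 1068. They were 906 and 659 without control replicate 3, 861 and 617 without knockout replicate 2, and 830 and 687 without knockout replicate 3.

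**Figure D1:**
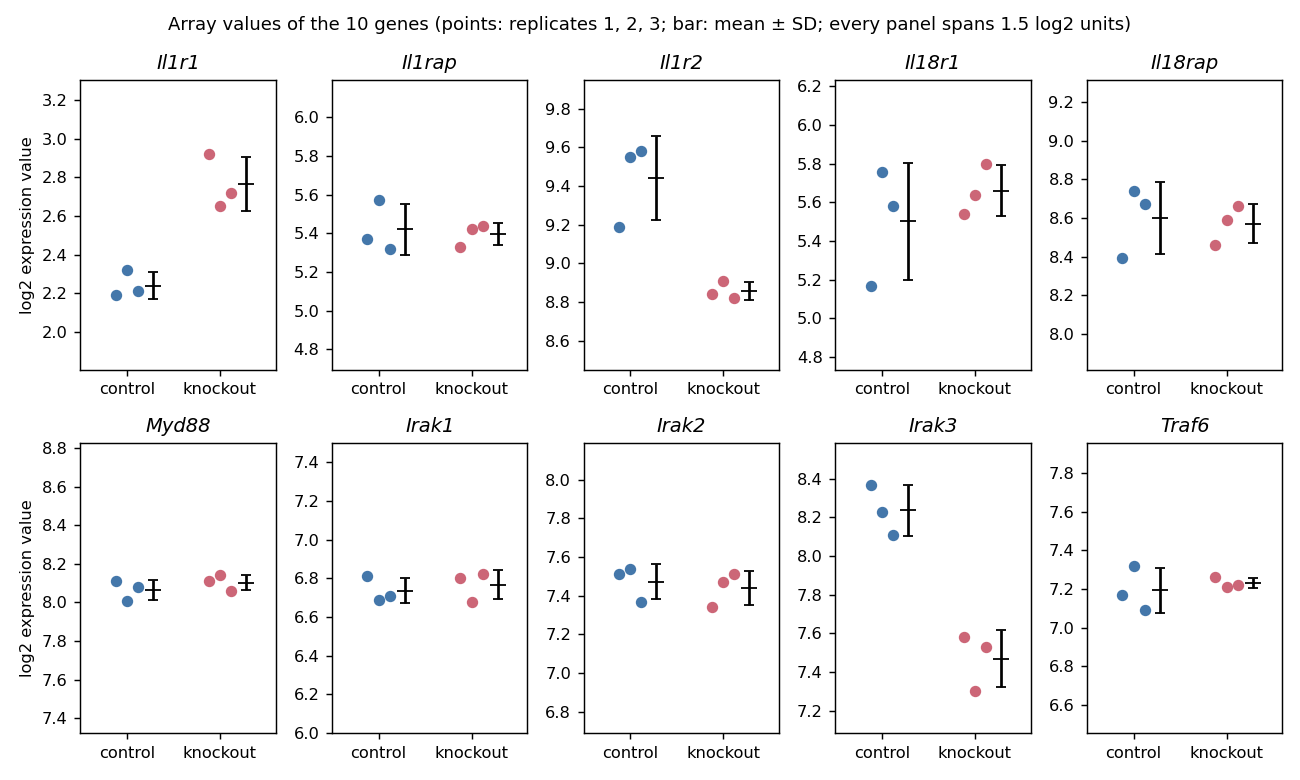
Log2 expression value (vertical axis, 1.5 log2 units in every panel) of each of the 10 genes in the 3 control and 3 knockout arrays, with points in the order of replicates 1, 2 and 3 and bars for mean ± SD. The groups separate for Irak3 (8.11 to 8.37 against 7.30 to 7.58), Il1r2 and Il1r1 and overlap for the other 7.

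Among the receptor chains, Il1r2, the decoy receptor for IL-1, gave 9.19, 9.55 and 9.58 in control and 8.84, 8.91 and 8.82 in knockout arrays. Every knockout array lay below every control array, and control replicate 1 stood nearest to the knockout group. The mean fell from 9.44 ± 0.22 to 8.86 ± 0.047 (SD, n = 3), changing by -0.58 (standard error 0.12, 95% interval -0.85 to -0.31; adjusted p = 0.0180), and 4.81% of all rows changed at least as much in either direction. Because Il1r2 is known from neutrophils and macrophages, their markers were read beside it. None of 8 neutrophil markers passed, 6 of them had both means below 3.60, and their mean level was 3.38 to 3.47 in control and 3.27 to 3.40 in knockout arrays. S100a8 read 1.76 to 2.09 and S100a9 2.23 to 2.46 over the 6 arrays. The other two stood higher, Ly6g at 4.69 to 5.60 (change -0.41, adjusted p = 0.215) and Cxcr2 at 5.68 to 6.39 (change 0.40, adjusted p = 0.0647). Of 7 macrophage, monocyte and dendritic cell markers Itgax fell and 6 did not pass, 14.3% called against 9.75% of all rows. Their mean levels were 3.62 to 3.73 in control and 3.39 to 3.61 in knockout arrays. Adgre1 read 1.90 to 2.23 there and Cd68 5.64 to 6.12, and Itgax read 5.68 to 5.90 in control and 4.57 to 4.90 in knockout arrays (change -1.04). The part of such cells in the fall of Il1r2 was not tested.

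Il1r1, the chain that signals for IL-1, read 2.19, 2.32 and 2.21 in control and 2.92, 2.65 and 2.72 in knockout arrays. All 3 knockout arrays were higher, yet every value lay below 3.60. The change was 0.52 with a standard error of 0.098 (95% interval 0.30 to 0.75; adjusted p = 0.0138). No detection calls separate signal from background at this level, so the size of the change is approximate and can be understated.

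Il1rap, the accessory chain shared by the IL-1 and IL-33 receptors, read 5.37, 5.57 and 5.32 in control and 5.33, 5.42 and 5.44 in knockout arrays. All knockout values lay inside the control range, and the difference was -0.02 (95% interval -0.24 to 0.19; adjusted p = 0.927). As a share of the control signal the interval runs from 84.6% to 114%.

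Il18r1, the IL-18-binding chain, read 5.17, 5.76 and 5.58 in control and 5.54, 5.64 and 5.80 in knockout arrays. Control replicate 1 was the lowest of the 6 and gave the gene the widest interval of the 10, -0.20 to 0.51 around a difference of 0.16 (adjusted p = 0.631). Without that array the difference was -0.01. Il18rap, its accessory chain, read 8.39, 8.74 and 8.67 in control and 8.46, 8.59 and 8.66 in knockout arrays. Control replicate 1 was again the lowest, and the groups overlapped, with a difference of -0.03 (95% interval -0.29 to 0.23; adjusted p = 0.921).

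In the adaptor chain, Myd88 had the narrowest spread of the 10 genes. It read 8.11, 8.01 and 8.08 in control and 8.11, 8.14 and 8.06 in knockout arrays, a difference of 0.04 (95% interval -0.14 to 0.22; adjusted p = 0.849). Irak1, a kinase that MyD88 recruits, read 6.81, 6.69 and 6.71 in control and 6.80, 6.68 and 6.82 in knockout arrays. Its groups covered nearly the same range, with a difference of 0.03 (interval -0.16 to 0.22; adjusted p = 0.889). Irak2, which sustains the signal after IRAK1, read 7.51, 7.54 and 7.37 in control and 7.34, 7.47 and 7.51 in knockout arrays. These overlapped too, at a difference of -0.03 (interval -0.24 to 0.17; adjusted p = 0.885). Traf6, the ubiquitin ligase at the end of the chain, read 7.17, 7.32 and 7.09 in control and 7.26, 7.21 and 7.22 in knockout arrays. The knockout values lay inside the control range, with a difference of 0.04 (interval -0.17 to 0.24; adjusted p = 0.868). For these 4 genes the intervals reach from 84.6% to 118% of the control signal.

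Irak3, the inhibitory family member, read 8.37, 8.23 and 8.11 in control and 7.58, 7.30 and 7.53 in knockout arrays. The lowest control array stood above the highest knockout array. The mean fell from 8.24 ± 0.13 to 7.47 ± 0.15, changing by -0.77 (standard error 0.11, 95% interval -1.02 to -0.51; adjusted p = 0.00447). Unlogged, 58.8% of the control level was left (49.4% to 70.0%), and 2.42% of all rows changed at least as much. Across the 6 fits with 1 array left out the change stayed between -0.83 and -0.68 and the adjusted p between 0.0112 and 0.0210.

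**Figure D2:**
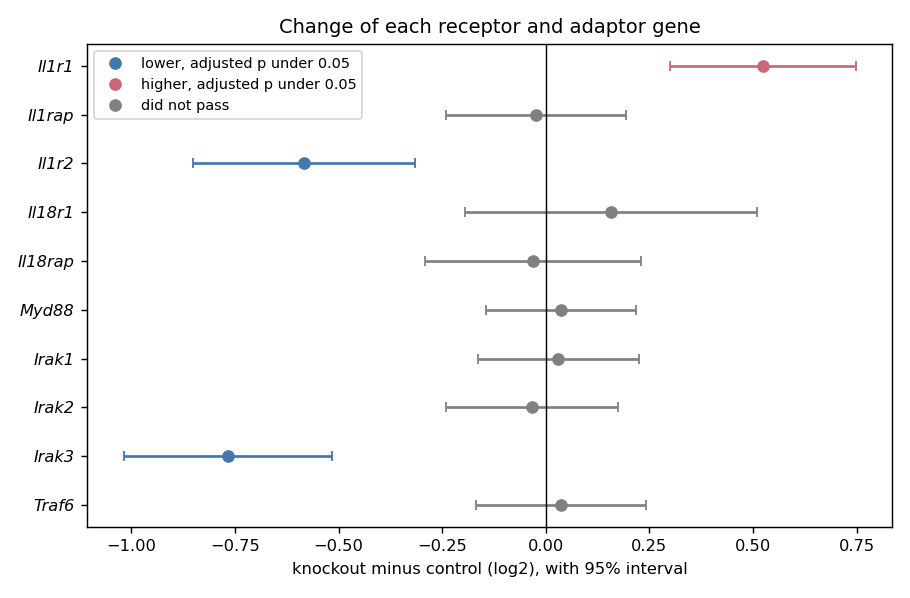
Knockout minus control on the log2 scale (horizontal axis) for the 10 genes, with 95% intervals from limma. Irak3 (-0.77), Il1r2 (-0.58) and Il1r1 (0.52) lie away from 0, and the intervals of the other 7 include it.

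**Figure D3:**
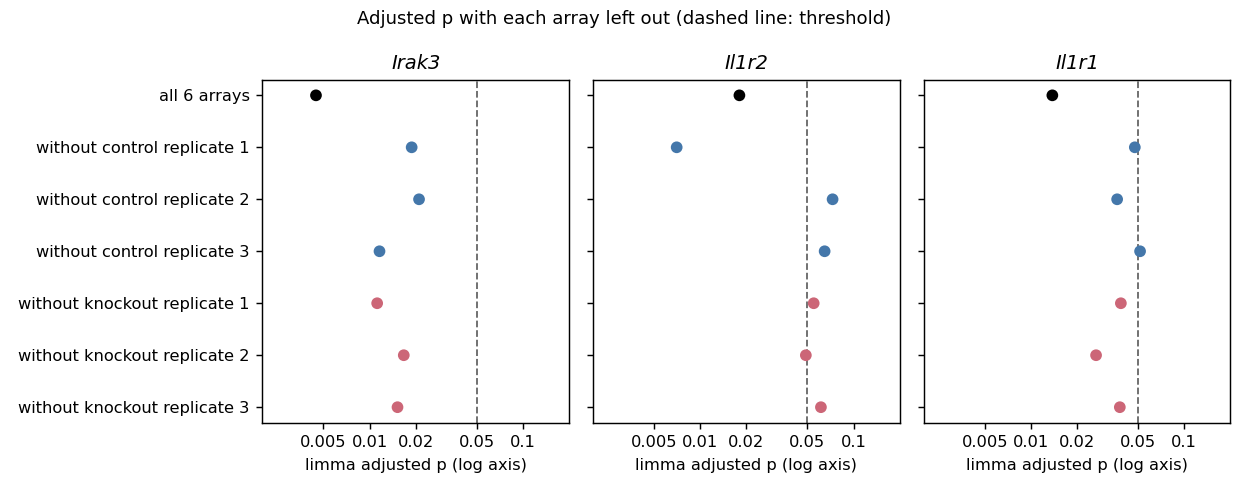
Limma adjusted p (horizontal log axis) of Irak3, Il1r2 and Il1r1 with all 6 arrays and with each array left out in turn, the dashed line marking 0.05. Irak3 stays left of the line throughout (0.00447 with all 6 arrays, 0.0112 to 0.0210 with 1 left out). Il1r2 crosses it in 4 of the 6 leave-one-out fits and Il1r1 in 1.

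The receptor chains other than Il1rap, whose promoter window lies on chromosome 16, are neighbours in the genome. In the RefSeq table of assembly GRCm38.p6, Il1r2, Il1r1, Il1rl2, Il18r1 and Il18rap follow each other in this order on chromosome 1, with 1 further receptor gene among them that was not analysed here. Il1r2 fell, its direct neighbour Il1r1 rose, and Il1rl2, the IL-36 receptor gene, differed by 0.19 (adjusted p = 0.490) at values from 2.39 to 2.93. The 3 protein-coding genes before the cluster, Rfx8, Gm3646 and the kinase gene Map4k4, differed by 0.02, 0.07 and -0.10 and did not pass. After it, Slc9a2, a sodium-proton exchanger gene, fell from 5.42 ± 0.13 to 4.81 ± 0.20 (adjusted p = 0.0179). Slc9a4 (-0.11) and Mfsd9 (-0.12) did not pass. Changed genes of this stretch moved in both directions, and this window was chosen after the values were seen.

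**Figure D4:**
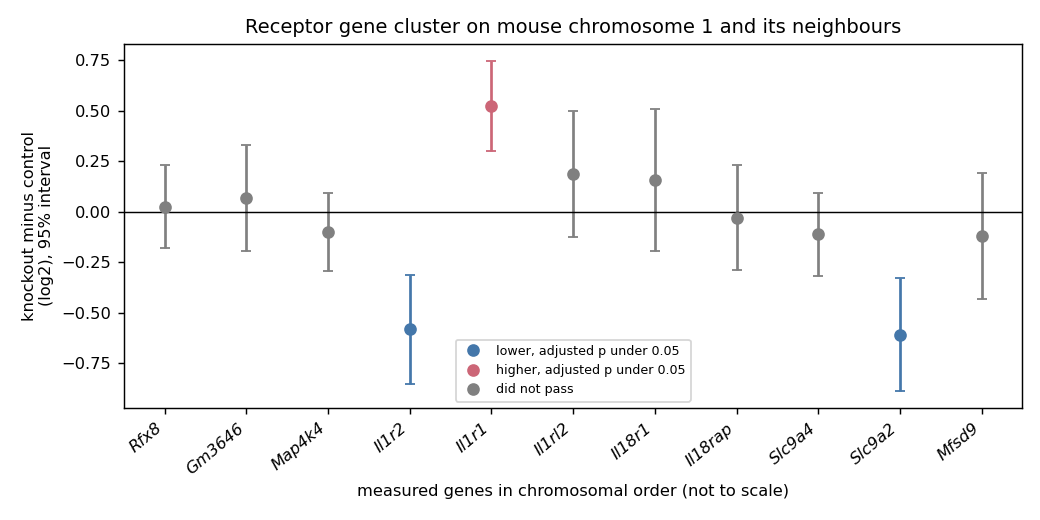
Knockout minus control on the log2 scale (vertical axis, 95% intervals) for 11 measured genes in their order on mouse chromosome 1, evenly spaced and not to scale. Il1r2 (-0.58) and Il1r1 (0.52) are adjacent and lie on opposite sides of 0, and Slc9a2 (-0.61) is the other gene that changed.

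The rows whose pattern over the 6 arrays came nearest to that of Irak3 were found by the root mean square difference of values centred on each row's mean. They were Gabarapl1 (0.051), a gene of the ATG8 family of autophagy proteins, and Sting1 (0.060), the adaptor of cytosolic DNA sensing. Next came Snap25 (0.061), a gene of membrane fusion, and Icos (0.072), a costimulatory receptor gene. Each was lower in the knockout, as the choice by likeness to Irak3 fixes, with changes of -0.76, -0.73, -0.73 and -0.78 in that order.

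Upstream of the receptors, 1 of 10 measured ligands and soluble antagonists changed, a share of 10%. Of all rows 9.75% passed, and of rows above the median level 18.0%. Most of the 10 lay below that level, where rows pass less often. Il33, the gene of the cytokine also supplied in the medium, read 8.82, 8.97 and 9.11 in control and 8.47, 8.43 and 8.30 in knockout arrays. These groups did not overlap, and the mean fell by 0.57 on the log2 scale with a standard error of 0.10 (adjusted p = 0.0115). It passed in all 6 leave-one-out fits (adjusted p 0.0158 to 0.0463). For 8 of the 10, both group means were below 3.60. Among these, Il1a differed by -0.13, Il1f8 (Il36b) by -0.12 and Il1rn, the gene of the IL-1 receptor antagonist, by 0.23, and none of the 3 passed (adjusted p 0.578, 0.536 and 0.286).

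Of 4 other receptor family chains 1 was called, 25% against 9.75% of all rows and 18.0% of rows above the median level. This was Sigirr, the gene of an inhibitory receptor of the family, which rose. It read 6.22, 6.13 and 6.31 in control and 6.74, 6.88 and 6.78 in knockout arrays, an increase of 0.58 with a standard error of 0.088 (adjusted p = 0.00578). Every knockout array was above every control array. Il1rl2, Il1rapl1 (0.14, adjusted p = 0.536) and Il1rapl2 (0.04, adjusted p = 0.870) did not pass, at means below 3.60. Among the inhibitory genes of the receptor step that passed, then, Sigirr rose while Irak3 and the decoy Il1r2 fell. Il1r2 missed in 4 of the 6 leave-one-out fits. The soluble antagonist genes Il1rn (0.23, adjusted p = 0.286) and Il18bp (-0.09, adjusted p = 0.781) did not pass.

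At the step where TRAF6 meets the kinase TAK1, 4 of 18 measured genes fell, 1 rose and 13 did not pass. The share called was 27.8%, against 9.75% of all rows and 18.0% of rows above the median level. Peli1, a ubiquitin ligase of IRAK complexes, fell from 9.43 ± 0.026 to 8.69 ± 0.015 (change -0.74, adjusted p = 0.00102). Sqstm1, the gene of the scaffold p62 that binds TRAF6, fell from 9.66 ± 0.18 to 8.91 ± 0.049 (change -0.74, adjusted p = 0.00463). Both passed in all 6 leave-one-out fits. Irak1bp1 (-0.40) and Tab3 (-0.38), a binding partner of TAK1, fell too, but the first missed in all 6 of those fits and the second in 5. Ube2v1, a partner of the ubiquitin-conjugating enzyme, rose by 0.88 at values below 3.60 in all but 1 array, and missed in 2 of those fits. Its close relative Ube2v2 differed by -0.27 (adjusted p = 0.229), and whether the probes share signal was not tested. The TAK1 gene Map3k7 differed by -0.02 (adjusted p = 0.924). Among 5 other TRAF genes, Traf1, which encodes a modulator of TRAF signalling, fell from 9.0 ± 0.16 to 8.26 ± 0.040 (adjusted p = 0.00353). Traf2, Traf4, Traf5 and Traf7 differed by 0.07, 0.27, 0.38 and -0.12 and did not pass. Thus 20% of these 5 were called, against 9.75% of all rows and 18.0% of rows above the median level.

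The MAP kinase branch had 5 rises and 2 falls among 16 measured genes, 43.8% called against 9.75% of all rows and 18.0% above the median level. The 5 rises and the 2 falls were all in kinase genes, which make up most of this list. Mapk11, which encodes p38 beta, rose by 0.74, its activator Map2k6 by 0.82 and the JNK1 gene Mapk8 by 0.71 (adjusted p 0.00833, 0.0107 and 0.0108). The upstream kinase genes Map3k3 (0.43) and Map3k1 (0.51) rose with adjusted p of 0.0194 and 0.0321, and missed in 4 and 5 of the 6 leave-one-out fits. Mapk14, the gene of p38 alpha, differed by 0.25 (adjusted p = 0.154). Map3k8 fell by 0.66 on the log2 scale and Mapkapk2, a kinase activated by p38, by 0.35 (adjusted p 0.00230 and 0.0346), the latter missing in all 6 of those fits.

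In the NF-κB step, 5 of 12 measured genes fell, 1 rose and 6 did not pass. Thus 50% were called, against 9.75% of all rows and 18.0% of rows above the median level. Rel read 9.49, 9.45 and 8.89 in control and 6.33, 6.91 and 6.61 in knockout arrays, a change of -2.66 (adjusted p = 0.000245). Nfkbia, the gene of the inhibitor IκBα, changed by -0.75, Nfkbiz, of an atypical IκB, by -0.81 and Nfkb2, of the p100 precursor, by -0.54 (adjusted p 0.00239, 0.00079 and 0.00738). Nfkbib changed by -0.34 (adjusted p = 0.0312) and missed in all 6 leave-one-out fits. Ikbke, the gene of the IKK-related kinase IKKε, rose from 5.49 ± 0.15 to 6.43 ± 0.055 (adjusted p = 0.00113). The kinase gene Ikbkb differed by 0.06 (adjusted p = 0.772).

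Among the feedback inhibitors 7 of 15 measured genes fell and 2 rose. The share called was 60%, against 9.75% of all rows and 18.0% of rows above the median level. Tnip3, the gene of an A20-binding protein, changed by -1.40, with a knockout mean of 3.27 that lies below 3.60. The MAP kinase phosphatase genes Dusp10 and Dusp2 changed by -1.19 and -0.86, Tnfaip3 (A20) by -1.15 and Zc3h12a, the gene of the RNase Regnase-1, by -0.75. These 5 had adjusted p between 0.000453 and 0.00447 and passed in all 6 leave-one-out fits. Socs3 (-0.50) and Tnip2 (-0.56) fell and Socs1 (0.48) and Tnip1 (0.38) rose, and each missed in 4 or 5 of those fits.

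Most Toll-like receptors use the same MyD88 chain. Of 22 measured genes in the list of Toll-like receptors and their adaptors, 3 rose, 1 fell and 18 did not pass. The share called was 18.2%, against 9.75% of all rows and 18.0% of rows above the median level. Ly96, which encodes the TLR4 partner MD-2, read 7.88, 7.74 and 7.90 in control and 9.12, 9.06 and 9.13 in knockout arrays. It rose 2.40-fold (change 1.26, adjusted p = 0.000155), more than any of the 10 receptor and adaptor genes changed. Tlr4 rose by 0.84 (adjusted p = 0.0255) from 5.06, 5.08 and 5.26 to 5.62, 5.89 and 6.40, and Tlr1 by 0.42 (adjusted p = 0.0462). Cd14, the gene of another TLR4 partner, read 2.53 to 3.36 over the 6 arrays and differed by -0.01. Tirap, the adaptor that bridges TLR4 to MyD88, changed by -0.33 (adjusted p = 0.0414). Tlr4 missed in 4, Tlr1 in 5 and Tirap in 6 of the 6 leave-one-out fits. Of 8 genes tied to the processing and release of IL-1 and IL-18, Nlrp3 (-2.46), Casp4 (-0.97) and Casp1 (-0.60) fell (adjusted p 7.06e-05, 0.00155 and 0.00800). Gsdmd (0.29, adjusted p = 0.0878) and 4 others did not pass. Thus 37.5% of these genes were called, against 9.75% of all rows and 18.0% of rows above the median level.

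Over these 9 lists together, 24 of 110 measured genes fell and 13 rose, 33.6% of them, where 9.75% of all rows passed. Above the median level 36 of 80 passed, 45% against 18.0% of all rows there. The lists' median change was -0.073. Of the 24 falls 17 passed in all 6 leave-one-out fits, as did 6 of the 13 rises. The rises numbered 6 without control replicate 2, 7 without control replicate 3 and 8 without knockout replicate 2. The lists were chosen with earlier results of these data known, so these counts are a description.

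**Figure D5:**
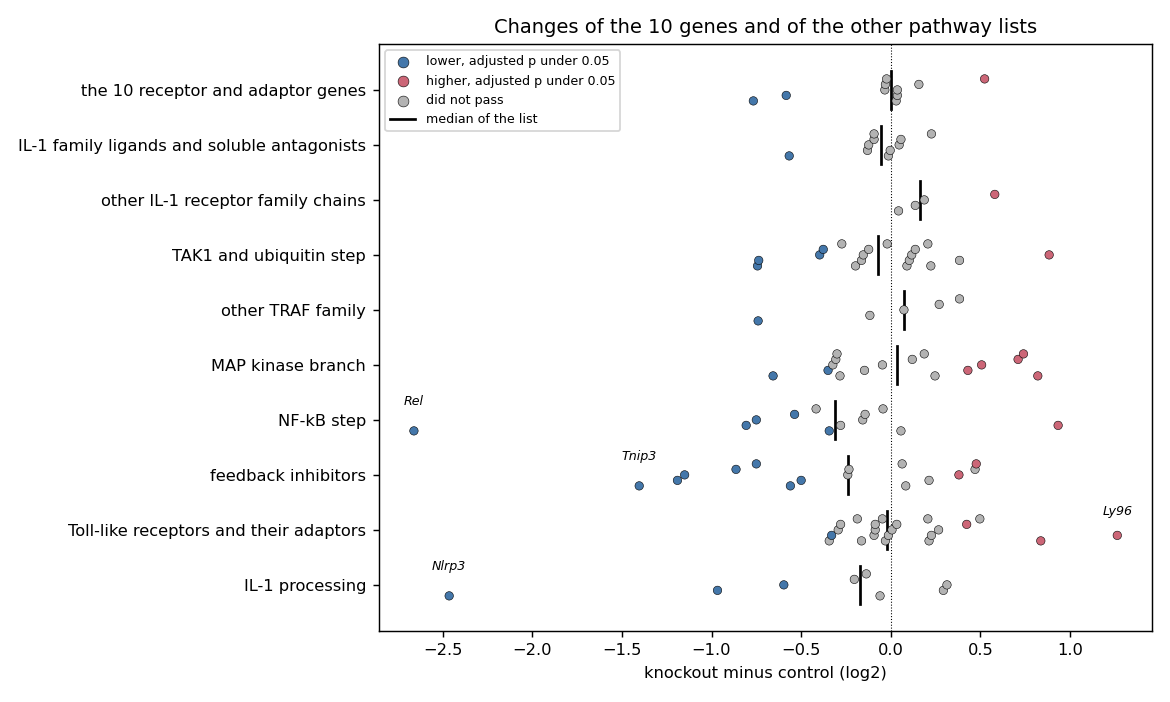
Knockout minus control on the log2 scale (horizontal axis) for each gene of the 10 receptor and adaptor genes and of 9 further lists of the route, blue for falls and red for rises past an adjusted p of 0.05, with black bars at list medians. The 10 genes gather near 0 except for Irak3, Il1r2 and Il1r1, while Rel (-2.66), Nlrp3 (-2.46) and Tnip3 (-1.40) lie farthest out below 0 and Ly96 (1.26) above it.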

How the data were processed

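Total RNA was labelled with biotin and read on 1-colour arrays, per the labels' protocols. The deposited table holds log2 values. RMA and limma 3.14.4 appear, without a stated role, in the submitters' processing notes. The log2 scale was read from the values, 0.66 to 12.51, and near-equal distributions would hide a change shared by most genes. The table gives no detection calls. Of 25206 rows, 23185 had 1 gene symbol and 2021 none, all 23185 matched by Entrez number to RefSeq (GRCm38.p6). Listed genes without a named row, 7 of 117 pathway genes, were not analysed here, and 3 list entries were found through an older symbol.

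Values were used as deposited. limma 3.58.1 in R 4.3.3 fitted knockout minus control on all rows, with two-sided moderated tests, Benjamini-Hochberg adjustment over all rows and a threshold of 0.05. The test was checked on simulated data with independent normal noise. That check required recovery only of shifts larger than those of the 10 members, so it does not speak for changes of their size. The labels name no separate cultures, so p-values measure the spread between these arrays, which may be technical. The number of arrays limits the precision. Members and lists were chosen with earlier results of these data known. Named were the 10 members, Cbfb and RUNX genes, every pathway-list gene past the threshold or among the 4 smallest adjusted p, and the 4 rows nearest to the called member with the largest change. Other genes named (map neighbours, examples that did not pass, cell markers) were chosen after their values were seen. Alternatives were a replicate block, leaving out each array, quantile normalisation again, centred columns, rows above the median level, a trended robust prior, array weights, an unmoderated test, thresholds of 0.01 and 0.1, and rows with 1 symbol. A planned comparison of protein sequences was not run.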

Additional observations from a re-analysis of the deposited data

How the results depend on the processing

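Every change of Irak3, Il1r2 and Il1r1 kept its direction under all alternatives that tested it, which was largely fixed in advance. Several alternatives keep the same difference of means, and groups that do not overlap keep their sign when 1 array is left out. Leaving out 1 array gave 0 to 1 genes higher and 1 to 2 lower among the 10, with changes of 0.445 to 0.58 for Il1r1 and -0.71 to -0.51 for Il1r2. For genes that did not pass, these fits gave -0.073 to 0.052 for Il1rap, -0.01 to 0.285 for Il18r1, -0.135 to 0.04 for Il18rap, -0.085 to 0.017 for Irak2 and -0.015 to 0.1 for Traf6, so those signs are not settled. Quantile normalisation again turned Il18rap to 0.013. The test without moderation, where 4 residual degrees of freedom stand alone, called 0 of the 10 higher and 0 lower (changes 0.52 for Il1r1, -0.58 for Il1r2 and -0.77 for Irak3, adjusted p 0.0657, 0.103 and 0.051). At an unadjusted p under 0.05 it called 1 higher and 2 lower. An adjusted p threshold of 0.01 left 0 higher and 1 lower and ended the calls of Il1r1 (0.52) and Il1r2 (-0.58). Among rows above the median level 0 of the 10 were higher, because Il1r1 was not tested there.

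Over all rows, leaving out 1 array gave 763 to 1113 higher and 544 to 786 lower. The unmoderated test gave 672 and 582, the 0.01 threshold 569 and 397, and the trended robust prior 1626 lower. For the lists together, rises numbered 6 to 11 with 1 array left out, 3 without moderation and 4 at 0.01. Same-numbered arrays deviated together only weakly (r of deviations 0.0249, 0.00669 and 0.0539). With 3 arrays per group and no pairing given in the labels, this cannot settle whether the numbers pair the arrays. With the replicate number as a block 1 of the 10 was higher and 2 lower, Irak3 at an adjusted p of 0.0135, and calls over all rows were 1027 and 718, over the lists together 10 and 18. Background limits what can be read of Il1r1 and of the 30 list genes with both means below 3.60.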
